A study of Rattus norvegicus with 6 samples.

Results

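The spleens of 3 sham rats, of the 6 rats in the series, were described on their own as the baseline of gene expression in this organ. Of the 36685 probe sets on the array, those that carried exactly 1 gene symbol were kept, and each gene was represented by the probe set with the highest mean over the 3 sham arrays, which gave 18166 genes. The study set partial portal vein ligation, which narrows the portal vein and raises portal pressure, beside a sham operation in male Sprague-Dawley rats, and the ligated animals were not used here. In the sham rats the abdomen was opened and the portal vein was freed in the same way with no ligature around it, and the spleen was taken 10 days later. The sham rats had therefore undergone anesthesia and surgery and were not untreated animals. Total RNA came from a piece of whole frozen spleen of each rat, so every value is a mixture of all the cell types in the tissue, and fewer cells of a type and less RNA per cell cannot be told apart. Each sample is labelled as its own rat, and each rat had 1 array. No result below comes from a test, because all 3 rats belong to 1 group, and their number limits the precision of each mean and SD.

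The spleen filters blood in its red pulp, where macrophages engulf aged erythrocytes and return the iron of heme to the circulation. Its white pulp is lymphoid tissue, with T cells around the arterioles and B cells in follicles, both held in place by stromal cells that secrete chemokines. The marginal zone between the compartments holds specialised macrophages and B cells that sample the blood. In rodents the red pulp also keeps making erythroid cells, megakaryocytes and granulocytes in adult life. Whether the values below come from such cells was not tested.

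The promoters of 8 genes are shown because they stand for the gene groups that the results turn on, namely the hemoglobin genes, heme synthesis, cell division, histones, antigen presentation and the interferon response. Fech, Plk1 and Rsad2 were added after their values were seen. The sequences are those of RefSeq in GRCr8, from 250 bases before the transcription start to 50 bases after it, read 5′ to 3′ on the strand of the gene. Capitals mark the letters CCAAT or TATAAA in the hemoglobin, histone and antigen presentation genes, AGATAAG in Fech, CCAAT and TTTGAA in Plk1, and the interferon response element in Rsad2, spelled as TTTC, any 2 bases and TTTC, on either strand. The alpha globin gene Hba-a1 lay at chr10:15842531-15842830 and the beta globin gene Hbb-b1 at chr1:167643471-167643770, both on the minus strand.
Hba-a1: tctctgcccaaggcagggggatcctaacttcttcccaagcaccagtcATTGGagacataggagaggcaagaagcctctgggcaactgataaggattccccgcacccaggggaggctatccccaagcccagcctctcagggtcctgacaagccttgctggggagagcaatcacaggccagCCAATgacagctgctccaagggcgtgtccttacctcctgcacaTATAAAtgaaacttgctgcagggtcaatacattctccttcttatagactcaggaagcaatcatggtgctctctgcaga
Hbb-b1: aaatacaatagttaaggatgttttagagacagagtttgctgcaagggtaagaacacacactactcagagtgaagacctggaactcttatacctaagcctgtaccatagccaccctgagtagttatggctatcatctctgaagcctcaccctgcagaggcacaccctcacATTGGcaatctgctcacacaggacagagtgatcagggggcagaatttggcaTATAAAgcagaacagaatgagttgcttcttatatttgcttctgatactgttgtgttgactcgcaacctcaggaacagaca
The gene of ferrochelatase, the last enzyme of heme synthesis, lay at chr18:60248476-60248775 on the minus strand, and that of the mitotic kinase Plk1 at chr1:186147408-186147707 on the plus strand.
Fech: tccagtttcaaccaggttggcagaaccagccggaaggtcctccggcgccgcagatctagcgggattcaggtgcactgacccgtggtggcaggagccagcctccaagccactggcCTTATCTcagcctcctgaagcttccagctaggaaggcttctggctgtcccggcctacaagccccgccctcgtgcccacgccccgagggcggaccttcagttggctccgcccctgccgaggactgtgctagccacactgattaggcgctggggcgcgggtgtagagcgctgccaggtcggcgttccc
Plk1: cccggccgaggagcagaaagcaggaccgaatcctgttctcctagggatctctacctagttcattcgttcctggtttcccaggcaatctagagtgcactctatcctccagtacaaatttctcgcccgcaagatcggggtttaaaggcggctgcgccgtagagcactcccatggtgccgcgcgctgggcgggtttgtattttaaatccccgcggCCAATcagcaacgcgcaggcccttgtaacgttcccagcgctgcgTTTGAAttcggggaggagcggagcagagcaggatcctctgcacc
The histone gene H2ac12 lay at chr17:47181943-47182242, Cd74, the invariant chain of MHC class II, at chr18:56526956-56527255, and RT1-Da, a rat class II alpha chain, at chr20:4515165-4515464, all on the plus strand.
H2ac12: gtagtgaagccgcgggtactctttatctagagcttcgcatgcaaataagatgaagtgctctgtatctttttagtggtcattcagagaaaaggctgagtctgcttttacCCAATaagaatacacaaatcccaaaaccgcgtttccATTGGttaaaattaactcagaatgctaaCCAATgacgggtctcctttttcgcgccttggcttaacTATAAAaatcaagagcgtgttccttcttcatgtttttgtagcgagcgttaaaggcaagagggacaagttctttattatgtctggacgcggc
Cd74: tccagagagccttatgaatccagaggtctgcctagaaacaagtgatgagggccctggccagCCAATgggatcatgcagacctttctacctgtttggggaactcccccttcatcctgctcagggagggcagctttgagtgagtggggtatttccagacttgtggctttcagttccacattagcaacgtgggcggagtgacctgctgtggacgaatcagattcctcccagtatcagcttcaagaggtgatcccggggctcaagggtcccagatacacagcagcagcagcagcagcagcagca
RT1-Da: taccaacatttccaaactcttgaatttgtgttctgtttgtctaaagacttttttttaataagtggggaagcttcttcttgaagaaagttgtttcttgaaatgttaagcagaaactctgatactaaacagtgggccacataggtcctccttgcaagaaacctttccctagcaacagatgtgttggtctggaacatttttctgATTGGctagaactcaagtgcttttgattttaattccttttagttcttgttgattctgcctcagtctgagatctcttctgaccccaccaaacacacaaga
Rsad2, the antiviral protein viperin, lay at chr6:48788071-48788370 on the minus strand.
Rsad2: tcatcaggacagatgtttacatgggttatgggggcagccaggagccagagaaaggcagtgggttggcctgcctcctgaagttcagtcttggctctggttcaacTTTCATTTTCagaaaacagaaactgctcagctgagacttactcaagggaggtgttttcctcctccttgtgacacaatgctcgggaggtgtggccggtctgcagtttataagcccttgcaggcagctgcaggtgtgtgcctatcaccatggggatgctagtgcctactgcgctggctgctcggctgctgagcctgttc

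The 3 arrays resembled each other closely over all genes. The array medians over all probe sets were log2 6.22, 6.25 and 6.33 in sham rats 1, 2 and 3, and over the 18166 genes they were 6.97, 6.98 and 6.95. Across genes, which are not independent replicates, Pearson's r was 0.995 for rats 1 and 2, 0.991 for rats 1 and 3 and 0.991 for rats 2 and 3. The mean log2 value of a gene ran from 2.75 to 13.82, with quartiles at 5.34, 6.97 and 8.51, and 99% of genes lay below 11.48. Values at the low end include the background signal of the probes, and no gene was called absent. The Y-linked gene Uty, at 9.47, 9.39 and 9.54, was high in all 3 rats, and the study states that its rats were male.

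Housekeeping and translation genes and the genes of antigen presentation and hemoglobin filled the top of the ranking. COX3, a mitochondrial subunit of cytochrome oxidase, had the highest mean with 13.82 ± 0.035 (SD, n = 3), and COX1 and COX2 of the same complex were among the first 10. Rpph1, the RNA of ribonuclease P, followed with 13.79 ± 0.115, and the elongation factor Eef1a1 with 13.62 ± 0.015. The 50 highest genes covered a narrow band between 12.39 and 13.82, and 19 of them were ribosomal protein symbols, 4 of which name pseudogenes or ribosomal-like loci. The values of the 3 rats overlapped in 47 of the 49 pairs of neighbours in this order, so most neighbours did not differ beyond the spread between rats. Of these 50 genes, 41 were among the highest 50 in each of the 3 rats.

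The same top 50 also held genes of antigen presentation, hemoglobin, iron storage and leukocytes. The class I light chain B2m was at 13.32, 13.34 and 13.45 in rats 1, 2 and 3. Cd74 was at 13.22, 13.39 and 13.42, and RT1-Da at 12.80, 12.83 and 13.07. Both hemoglobin genes were there, with Hbb-b1 at 13.07, 13.02 and 12.67 and Hba-a1 at 13.13, 13.14 and 12.31. Hba-a1 had the widest spread of the 50 genes, with an SD of 0.474, and rat 3 was its lowest value. The ferritin chains Ftl1 (13.26) and Fth1 (12.64), which store iron, the lysozyme gene Lyz2 (12.78), the leukocyte surface protein Cd48 (12.64) and the actin-bundling protein of leukocytes Lcp1 (12.55) were also among them by mean log2 value, as was Plac8 (12.61).

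The array signal of different genes covered a wide range even within a family. The 55 measured ribosomal protein genes ranged from 4.93 for Rpl5 to 13.60 for Rps29 around a median of 11.82. Among housekeeping genes, Eef1b2 was at 5.13 while Eef1a1 was at 13.62. Values of different probe sets are not on a common scale of mRNA copies, so the order of genes is given as one of array signal.

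The gene lists of spleen cell types lay mostly above the median gene, and the lists of other organs lay below it. Of 34 lists, 23 had a median above that of all genes, and none of the 5 lists of liver, brain, retina, testis and striated muscle did, with medians of 5.31, 5.61, 4.84, 4.73 and 5.60. The chemosensory receptors, which are expressed in the nose and tongue, gave a lower reference still. The 1185 olfactory receptor genes had a median of 3.99, the 159 vomeronasal receptors 3.60 and the 35 bitter taste receptors 3.65.

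**Figure D1:**
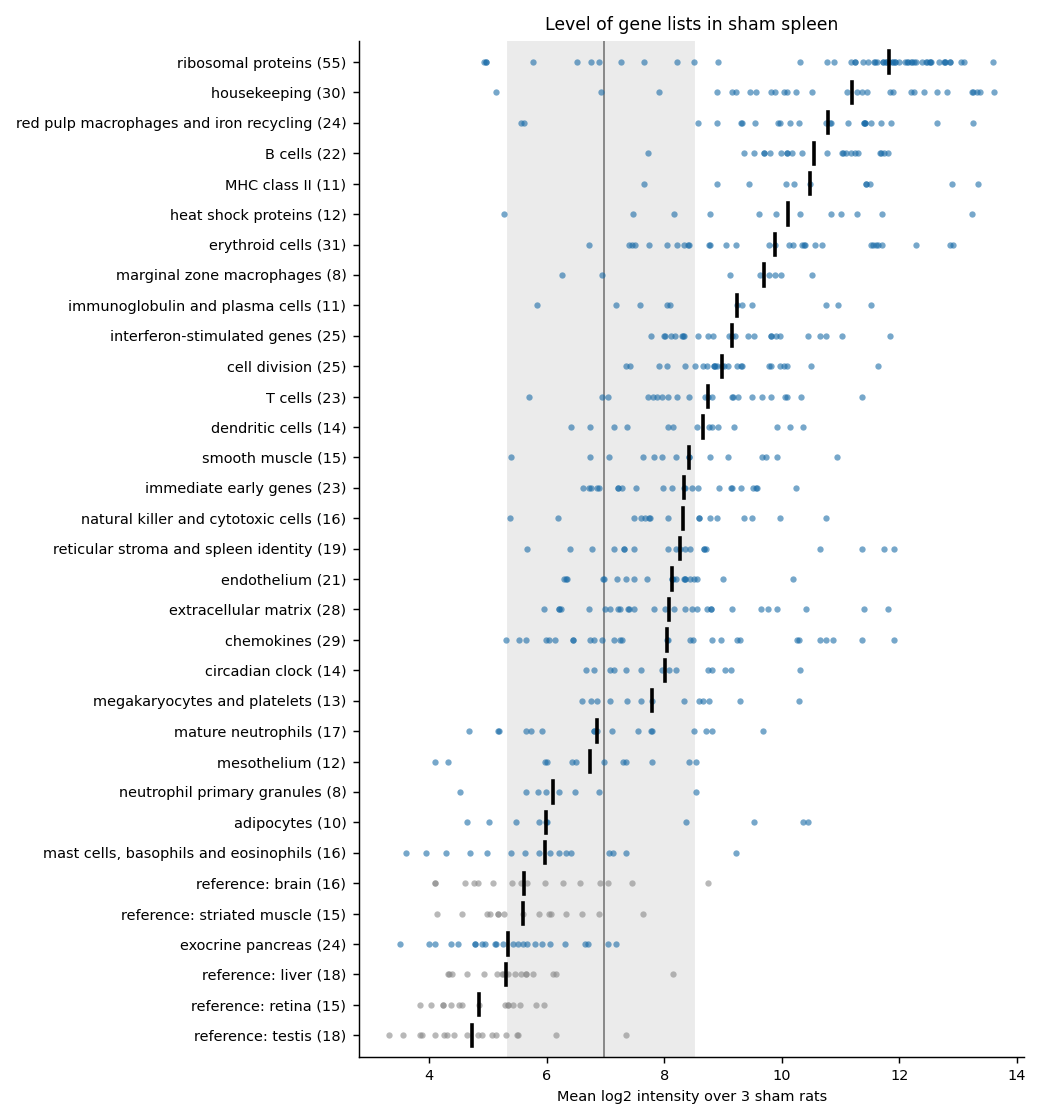
Each dot is the mean log2 intensity of a gene over the 3 sham rats, grouped by list with the number of measured genes in parentheses, and the black bar is the list's median. The grey band spans the lower to upper quartile of all 18166 genes (5.34 to 8.51) and the grey line their median (6.97). Ribosomal, housekeeping, red pulp macrophage, B cell and MHC class II genes lie highest, and the 5 reference lists of other organs (grey dots) lie at or near the bottom.

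The labelled tissue was checked against 69 cell type markers, of which 58 were measured. Those of B cells lay between 10.18 and 11.69 by mean log2 value, those of T cells between 8.42 and 11.37, and those of red pulp macrophages between 8.90 and 11.52. The markers of fat cells lay between 5.02 and 5.87 and those of exocrine pancreas between 4.37 and 7.18. Markers of other cell types were mixed. Below the median gene were 2 of 5 neutrophil markers and 2 of 3 measured for mast cells and eosinophils. The same held for 1 marker each of plasma cells, marginal zone macrophages and endothelium. The levels of the B cell, T cell and red pulp macrophage markers did not go against a spleen label.

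B cell genes formed the highest lymphoid list, and all 22 measured genes were above the median gene. Their median was 10.55, at the 96.9 percentile of all genes. Cd37, a tetraspanin of mature B cells, had a mean of 11.81, followed by the complement receptor Cr2 of follicular and marginal zone B cells with 11.75. Ms4a1, which encodes CD20, was at 11.59, 11.58 and 11.91 in the 3 rats. Cd79b and Cd79a, the signaling chains of the B cell receptor, had means of 11.67 and 10.18. The lowest of the list was Vpreb3 with 7.72, a surrogate light chain partner of immature B cells. The number that differed by over 1.5-fold between rats was 0 of 22, against 6.33% of all genes. A list of 22 genes is too short to tell these shares apart. Pax5, a transcription factor of B cells, was not measured here.

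Genes of antibody-secreting cells spanned a wide band. Jchain, which joins polymeric immunoglobulins, was at 11.72, 11.49 and 11.35, and the light chain constant gene Iglc1 had a mean of 10.96. Xbp1, a transcription factor of secretory cells that many other cells also express, had a mean of 10.75. At the other end the plasma cell receptor Tnfrsf17 had a mean of 5.83, below the median gene, and Prdm1, the factor that drives plasma cell differentiation, 7.18.

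T cell genes had a median of 8.75, at the 79.1 percentile, and 21 of 23 were above the median gene. Cd4 was the highest with 11.35, 11.60 and 11.16, and rat macrophages are also known to carry CD4. Cd2 and Tcf7, the latter a transcription factor of naive T cells, had means of 10.32 and 10.09. The coreceptor Cd8a was at 9.81, and the CD3 chains Cd3g, Cd3e and Cd3d were at 9.67, 9.25 and 8.42. The inhibitory receptor Ctla4 (5.70) and the regulatory T cell factor Foxp3 (6.94) were the lowest. The number that differed by over 1.5-fold between rats was 0 of 23, against 6.33% of all genes. A list of 23 genes is too short to tell these shares apart.

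Cytotoxic genes lay lower than those of T cells and spread more. The 16 measured genes had a median of 8.33, led by the chemokine Ccl5 with 10.76 and the activating receptor Klrk1 with 9.97, while granzyme B (Gzmb) was the lowest with 5.36. The widest member was Klrd1, the CD94 chain of natural killer cells, with 8.88, 8.49 and 9.31 in rats 1, 2 and 3. Klrc1, its NKG2A partner, was at 7.32, 7.38 and 8.12, and Ncr1, the receptor that marks natural killer cells, at 7.47, 7.67 and 8.12. Rat 3 held the highest value in 11 of the 16 genes, against 38.3% over all genes, and in 9 of them after each array was centred on its median, against 21.3% of all genes.

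MHC class II genes were among the highest in the tissue. All 11 were above the median gene, with a median of 10.47, and 10 were in the top quintile of genes by level. RT1-Ba and RT1-Bb had means of 11.49 and 11.44, and the transactivator Ciita, which switches these genes on, had 8.89. RT1-Db1 departed from the rest, with 11.77, 11.88 and 10.65, and rat 3 lay 2.35-fold below rat 2. RT1-Da, which pairs with RT1-Db1 in the same molecule, was highest in rat 3.

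Macrophage and iron recycling genes gave the highest median of the myeloid lists, 10.79 over 24 genes. Of these, 0 differed by over 1.5-fold between rats, against 6.33% of all genes. A list of 24 genes is too short to tell these shares apart. The adhesion molecule Vcam1 had a mean of 11.86, the complement component C1qa 11.69 and the iron exporter ferroportin (Slc40a1) 11.52. Heme oxygenase (Hmox1), which opens the heme ring, was at 11.42, 11.43 and 11.35. Cd163, the scavenger receptor for hemoglobin, and Spic, the factor that specifies red pulp macrophages in mice, had means of 10.82 and 9.30. The lowest members were the Kupffer cell lectin Clec4f (5.61), which belongs to liver macrophages, and Hfe (5.57).

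Of the marginal zone macrophage genes, Nr1h3, the LXR alpha receptor that these cells depend on in mice, had the highest mean with 10.52. Cd5l was at 9.98, Siglec1, the sialoadhesin of metallophilic macrophages, at 9.78, and the gene listed as Cd209b, matched through a synonym to Clec4m, at 9.88. Marco, a scavenger receptor of these cells in mice, was lower with 6.90, 6.73 and 7.16, and the lowest of the 8 was Timd4 with 6.26. Dendritic cell genes had a median of 8.66 over 14 genes. Xcr1 (8.91), Flt3 (8.81) and Clec9a (8.76), which mark cross-presenting cells and their precursors, lay close together by mean log2 value, while Ccr9 was the lowest with 5.89, 6.71 and 6.65.

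Erythroid genes were high on average and lower in rat 3 than in the other rats. The 31 measured genes had a median of 9.88, at the 93.0 percentile. The carbonic anhydrases Car1 and Car2 had means of 11.70 and 11.64, and Ahsp, the chaperone of free alpha globin, 11.61. The list medians were 10.18, 10.20 and 9.23 in rats 1, 2 and 3, and all 31 genes had their lowest value in rat 3, as 36.2% of all genes did. Centring each array on its median moves the median difference of all genes between rats 1 and 3 from -0.003 to 0.109, and between rats 2 and 3 from -0.007 to 0.078. After centring and after quantile normalization of the arrays all 31 were still lowest in rat 3, as 54.7% and 42.4% of all genes then were. Over the members the median difference was 0.87 between rats 1 and 3, 0.94 between rats 2 and 3, and -0.08 between rats 1 and 2.

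Of the 31 erythroid genes, 15 differed by over 2-fold between the highest and the lowest rat, against 0.963% of all genes, and without rat 3 the count was 0. Klf1, the master transcription factor of erythroid cells, was at 8.15, 8.38 and 6.71, a range of 3.18-fold. The mitochondrial iron importer Slc25a37 was at 10.46, 10.67 and 9.23, and the anion exchanger Slc4a1 (band 3) at 11.86, 12.01 and 10.67. Fech was at 10.57, 10.84 and 9.76. Rats 1 and 2 lay within 0.28 of each other in each of these 4 genes, while rat 3 lay over 0.8 below both. The genes with the smallest ranges were Hbb-b1, with 0.39, and Xk, with 0.47. Alas2 and Hbb, which are standard erythroid markers, were not measured here.

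**Figure D2:**
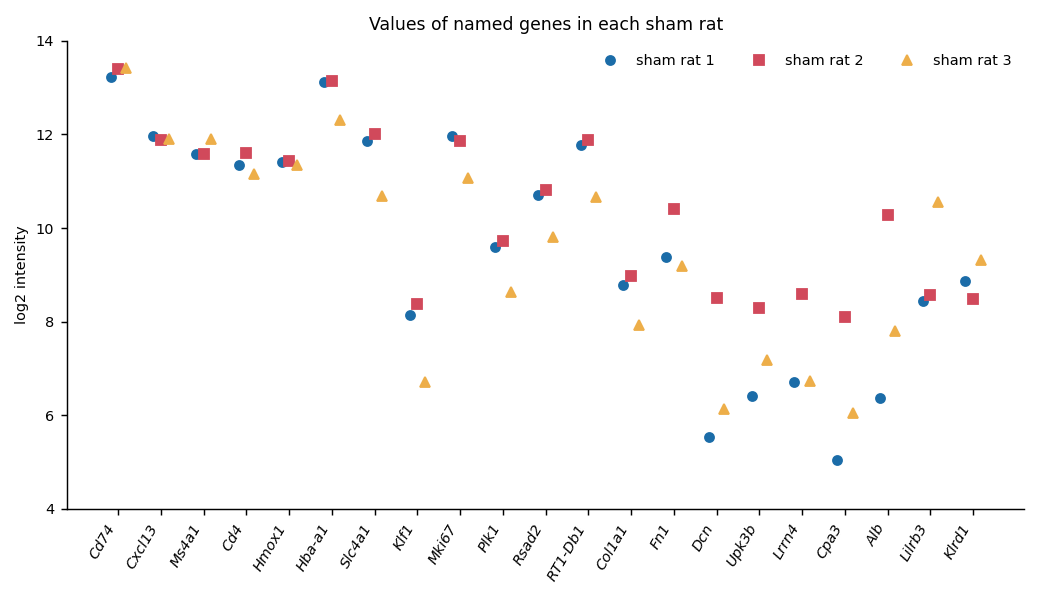
Log2 intensity of 21 named genes in each of the 3 sham rats (circles rat 1, squares rat 2, triangles rat 3). Cxcl13 and Hmox1 nearly coincide in the 3 rats, Klf1, Slc4a1, Plk1 and RT1-Db1 are lower in rat 3, Dcn, Upk3b, Cpa3 and Alb are highest in rat 2, and Lilrb3 is highest in rat 3.

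Genes of dividing cells were high in this adult organ and mostly lowest in rat 3. All 25 were above the median gene, with a median of 8.99. Mki67, the proliferation antigen Ki67, was at 11.98, 11.87 and 11.07 and ranked above 99.2% of all genes. The replication clamp Pcna had a mean of 10.50, the ribonucleotide reductase subunit Rrm2 10.09 and the mitotic cyclin Ccnb2 10.04. Rat 3 held the lowest value in 24 of the 25 genes, and Mcm3, a replication helicase subunit, was the exception with 9.64, 9.96 and 9.84. The count was 24 after centring and 24 after quantile normalization as well, against 36.2%, 54.7% and 42.4% of all genes under the 3 scalings. The list medians were 9.19, 9.20 and 8.55.

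Of these 25 genes, 5 had a range over 2-fold, against 0.963% of all genes, with counts of 3, 2 and 0 when rat 1, 2 or 3 was left out and 8 when the arrays were centred on their medians. Rrm2 was at 10.36, 10.56 and 9.36, Plk1 at 9.59, 9.72 and 8.64, and the helicase subunit Mcm5 at 9.18, 9.43 and 8.36. The histone genes, whose mRNAs accumulate during DNA replication, were also mostly lowest in rat 3. They had medians of 9.71, 9.42 and 8.54, and 22 of 31 were lowest in rat 3, with 23 after centring and 23 after quantile normalization, against 36.2%, 54.7% and 42.4% of all genes. Of the 31 genes, 10 had ranges over 2-fold, and 0 without rat 3. H2ac12 was at 12.04, 11.85 and 10.50, Hist1h2af at 10.22, 10.30 and 8.54 and H2ax at 10.76, 10.25 and 9.05. Replication histone genes have near-identical copies, so their probe sets may read several of them.

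**Figure D3:**
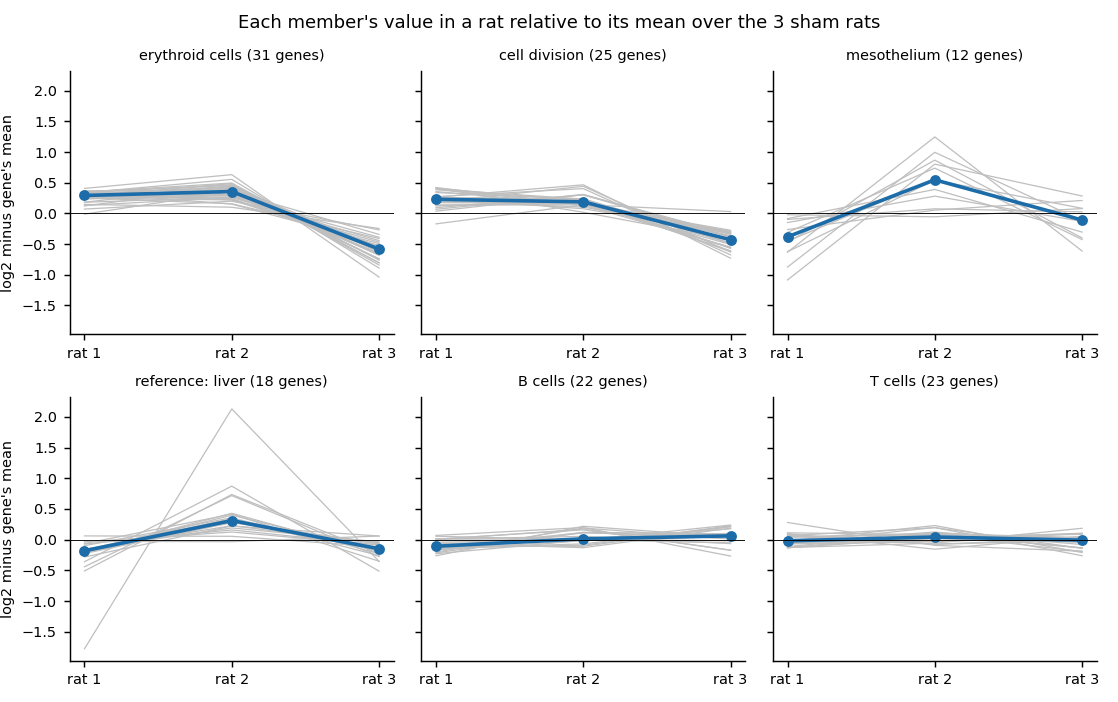
Each grey line joins the values of 1 gene in the 3 sham rats after subtraction of that gene's mean, and the blue line is the median over the list. The rats have no order. Erythroid and cell division genes sit below their mean in rat 3, mesothelial and liver genes sit above it in rat 2, and B cell and T cell genes stay close to 0 in all 3 rats.

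Megakaryocyte and platelet genes had a median of 7.79. The platelet chemokines Pf4 and Ppbp had means of 10.30 and 9.29, and 10 of 13 genes were lowest in rat 3 as deposited, after centring and after quantile normalization, against 36.2%, 54.7% and 42.4% of all genes. Genes of neutrophil primary granules were low, with a median of 6.10, and the alpha defensin Defa5 stood above the others with 8.58, 8.91 and 8.13, while Mpo was at 7.06, 7.03 and 6.57. Of the 8 measured genes, 7 were lowest in rat 3, with 8 after centring and 8 after quantile normalization. The shares of all genes were again 36.2%, 54.7% and 42.4%. The range was over 2-fold in 1 of the 8 genes, against 0.963% of all genes. Alpha defensin genes are near-identical copies, so Defa5 and Defa11 may share signal.

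Mature neutrophil genes had a median of 6.86, close to the median gene. The calprotectin subunits S100a9 and S100a8 were at 10.18, 9.70 and 9.19 and at 8.06, 7.61 and 6.98 in rats 1, 2 and 3. Lcn2, an iron-scavenging granule protein that epithelia also make, was at 6.97, 8.22 and 6.16, so its highest value was in rat 2. Ltf was the lowest with 4.68. Of the genes of mast cells, basophils and eosinophils the eotaxin receptor Ccr3 was the highest with 9.22, and 4 of the 16 measured genes were above the median gene. Cpa3, the carboxypeptidase of mast cells, was at 5.05, 8.10 and 6.06, an 8.29-fold range, and the mast cell tryptase Tpsb2, with 5.97, 6.60 and 6.42, was also highest in rat 2 over a smaller range.

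Stromal genes that define the spleen had a median of 8.26 over 19 genes, and a median range of 0.34 beside 0.23 for all genes. Cxcl13, the chemokine that draws B cells into follicles, was at 11.96, 11.89 and 11.90, and the follicular dendritic cell product Mfge8 had a mean of 11.74. Ccl21, which draws T cells and dendritic cells, was at 11.25, 11.26 and 11.58, and Cxcl12, the retention factor of blood progenitors and plasma cells, had a mean of 10.65. Tlx1 and Nkx2-5, transcription factors without which the spleen is malformed or absent in mice, had means of 8.26 and 7.31, so both were above the median gene. Madcam1 of the marginal sinus was the lowest with 5.66. Podoplanin (Pdpn), which both reticular and mesothelial cells carry, was the widest of the 19 genes with 6.51, 8.17 and 7.24.

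Endothelial genes had a median of 8.13, and Plvap, the diaphragm protein of fenestrated vessels, led with 10.32, 10.49 and 9.79. Cdh5, the cadherin of endothelial junctions, was at 9.14, 8.99 and 8.87. Rat 3 was lowest in 16 of 21 genes, in 18 after centring and in 15 after quantile normalization, against 36.2%, 54.7% and 42.4% of all genes. The hyaluronan receptor Lyve1 was the widest member with 6.57, 7.88 and 6.41. Smooth muscle genes had a median range of 0.33, beside 0.31 for endothelial genes. Tagln, an actin-binding protein of the contractile apparatus, had the smallest range of the 15 genes, 0.07, at a mean of 10.95, and Myl9 and desmin (Des) had means of 9.91 and 9.67. Acta2, the usual smooth muscle marker, was not measured here by a probe set with a single symbol.

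Extracellular matrix genes were led by Sparc (11.81), a collagen-binding glycoprotein, the proteoglycan biglycan (Bgn, 11.39) and matrix Gla protein (Mgp, 10.42). The fibrillar collagen Col3a1, the main component of reticular fibers, had a mean of 9.77. Of the 28 genes, 21 were highest in rat 2, with 18 after centring and 17 after quantile normalization, against 30.4%, 34.1% and 31.7% of all genes. The range was over 2-fold in 3 of the 28 genes, against 0.963% of all genes, and in 0 without rat 2. Decorin (Dcn), a proteoglycan of connective tissue, was at 5.54, 8.51 and 6.13, fibronectin (Fn1) at 9.38, 10.40 and 9.18, and Col1a1 at 8.78, 8.97 and 7.93. Rat 2 stood above both other rats for Dcn and Fn1, while rat 3 stood below both for Col1a1. Another small proteoglycan, lumican (Lum), was the lowest of the list with 5.86, 5.95 and 6.07 and did not share the range of Dcn.

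Mesothelial genes, which belong to the cell layer that covers the spleen capsule and the peritoneum, were higher in rat 2. The list medians were 6.27, 7.51 and 6.43, and 10 of 12 genes were highest in rat 2 as deposited, after centring and after quantile normalization, against 30.4%, 34.1% and 31.7% of all genes. The range was over 2-fold in 7 genes, against 0.963% of all genes, in 4 without rat 1 and in 1 without rat 2. Lrrn4 was at 6.72, 8.59 and 6.73, the uroplakin Upk3b at 6.42, 8.29 and 7.18, and Upk1b at 5.90, 7.78 and 7.26. Mesothelin (Msln) was at 7.80, 8.96 and 8.50. For Upk1b and Msln rat 1 lay farther from the middle value than rat 2 did. The lowest genes, Calb2 (4.09) and Bnc1 (4.32), lay at the level of chemosensory receptors in all 3 rats.

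Albumin had the largest range of all 18166 genes. Alb, the main plasma protein made by liver, was at 6.37, 10.28 and 7.80 in rats 1, 2 and 3, a 15.0-fold range. Of the 18 liver genes 16 were highest in rat 2, with 16 after centring and 17 after quantile normalization, against 30.4%, 34.1% and 31.7% of all genes. The range was over 2-fold in 4 of them, against 0.963% of all genes, in 2 without rat 1 and in 1 without rat 2. These were Alb, fibrinogen gamma (Fgg) with 4.80, 6.03 and 4.65, hemopexin (Hpx) with 5.14, 6.39 and 5.42, and transthyretin (Ttr) with 5.71, 6.87 and 5.88. The other liver genes had lower ranges, and the clotting factor F9 was among the lowest with a mean of 4.32. Exocrine pancreas genes, from the organ that adjoins the splenic hilum, had a median of 5.34 and were over 2-fold apart in 0 of 24 genes, which is near the 0.963% of all genes. Fat cell genes were split, as Lpl (10.45), Cfd (10.36) and Fabp4 (9.53), which macrophages or endothelium also express, were high while Adipoq (5.02) and Lep (4.65) were low. Where the mesothelial and liver transcripts of rat 2 came from was not tested.

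Interferon-stimulated genes were all 25 above the median gene, with a median of 9.15. Ifi27 had a mean of 11.84, Slfn4 11.02 and the antiviral GTPase Mx1 10.76 with a range of 0.07. Rsad2 was at 10.71, 10.82 and 9.80. It was the sole gene of the 25 over 2-fold apart, against 0.963% of all genes, and was not so without rat 3. Irf7, a transcription factor of the interferon response, was at 10.81, 10.92 and 10.20. The chemokines Cxcl10, Cxcl11 and Cxcl9, which interferon gamma induces, had means of 10.26, 9.23 and 8.96. Each was lowest in rat 1, as 32.7% of all genes were, and highest in rat 3, as 38.3% of all genes were. These 3 chemokines were chosen after their values were seen. Of the 29 genes in the chemokine list, 13 were lowest in rat 1, against 32.7% of all genes. After centring and after quantile normalization the counts were 9 and 9, against 20.5% and 28.9% of all genes. Highest in rat 3 were 15 genes as deposited, 12 after centring and 14 after quantile normalization. The shares of all genes highest in rat 3 were then 38.3%, 21.3% and 32.6%.

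Genes that respond to handling and tissue collection had median ranges of 0.41 for immediate early genes, 0.34 for heat shock genes and 0.21 for clock genes, beside 0.23 for all genes. Immediate early genes had a median level of 8.34, with Zfp36 at 10.24 and Dusp1 at 9.82, 9.89 and 9.05, and 16 of 23 were lowest in rat 3, with 18 after centring and 17 after quantile normalization, against 36.2%, 54.7% and 42.4% of all genes. Fos was at 6.84, 7.69 and 7.07, and Ier3, at 7.99, 7.77 and 6.77, was the sole member of the 23 over 2-fold apart, against 0.963% of all genes. Heat shock genes had a median of 10.10, led by the constitutive Hspa8 with 13.24, and 0 of 12 had a range over 2-fold, which is near the 0.963% of all genes. Among clock genes, which follow the hour of tissue collection, Dbp was at 10.27, 10.40 and 10.25 and Nr1d1, the sole member of the 14 over 2-fold apart, at 8.95, 9.13 and 8.13, while Bmal1, which peaks at the opposite phase to Nr1d1, was at 8.22, 8.16 and 8.22.

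The spread between the rats was small for most genes, and the median SD hardly changed with level. The median SD over the 3 rats was 0.121 on the log2 scale, and 95% of genes had an SD under 0.33. By quintiles of mean level from the lowest to the highest the median SD was 0.118, 0.126, 0.131, 0.122 and 0.111. The share of genes with a range over 2-fold rose over the same quintiles, from 0.385% to 0.771%, 1.07%, 1.24% and 1.35%. In all, 175 genes (0.963%) had a range over 2-fold, and leaving out rat 1, 2 or 3 gave 124, 94 and 39, where a range over 2 rats can only be smaller than over 3.

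**Figure D4:**
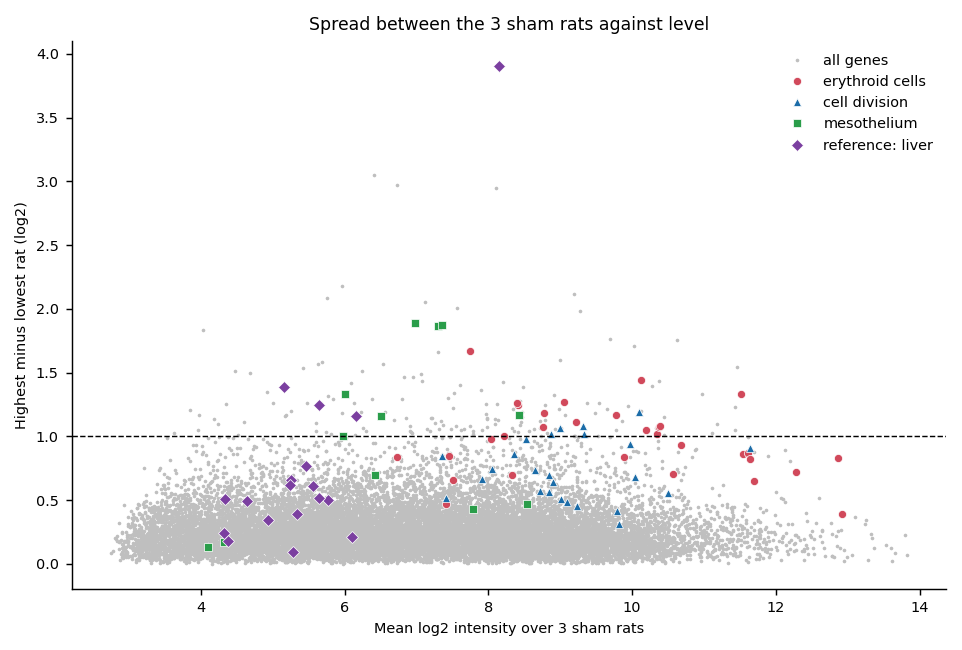
Each grey point is a gene, with its mean log2 intensity over the 3 sham rats on the horizontal axis and the difference between its highest and lowest rat on the vertical axis, and the dashed line marks a 2-fold range. Coloured symbols mark the erythroid, cell division, mesothelial and liver lists, and the point at the top is Alb with a range of 3.91.

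Pairs of rats differed in number and side. Rats 1 and 2 were over 2-fold apart in 39 genes (0.215%), rats 1 and 3 in 94 (0.517%) and rats 2 and 3 in 124 (0.683%). Rat 1 lay above rat 2 in 5 genes (0.0275%) and below it in 34 (0.187%). It lay above rat 3 in 78 genes (0.429%) and below it in 16 (0.0881%). Rat 2 lay above rat 3 in 107 genes (0.589%) and below it in 17 (0.0936%). When each of the 175 genes was assigned to the rat that lay farther from the middle value, rat 3 lay below in 103 genes and above in 20, rat 2 above in 38 and below in 5, and rat 1 above in 4 and below in 5. Of the 626 measured genes in the lists, 46 had a range over 2-fold, against 175 of all 18166 genes (0.963%). The other 129 of the 175 were in no list. The lists were chosen with earlier results of these data known.

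Among the widest genes outside the lists, several are known from the same cell types. Lgals5, a galectin of rat reticulocytes and erythrocytes, was at 11.23, 11.19 and 9.47, and Alox15, the lipoxygenase first known from reticulocytes and also found in macrophages and eosinophils, at 9.78, 10.02 and 8.03. Rbm38 was at 10.90, 10.77 and 9.46. All 3 had their lowest value in rat 3. Rgs13, a regulator of G protein signaling found in germinal center B cells and mast cells, was at 8.42, 7.85 and 6.41. C1h9orf85 was at 6.93, 6.21 and 4.74 and LOC100360095 at 3.34, 5.18 and 3.56, and neither was assigned to a cell type. In rat 2, Wfdc21 was at 10.04 beside 7.17 and 7.09 in rats 1 and 3, and Gc, the vitamin D-binding protein of liver, at 7.07 beside 4.98 and 5.22. In rat 3, the leukocyte receptor Lilrb3 was at 10.56 beside 8.45 and 8.57, the monooxygenase Fmo2 at 9.96 beside 8.36 and 8.67, and the natural killer receptor Klrc3 at 7.90 beside 6.85 and 6.46. Lilrb3 belongs to a family of similar receptors that differ between animals, and Klrc3 shares sequence with Klrc1 and Klrc2, so these probe sets may read several genes.

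Promoter letters differed with level and between lists, as a description of sequence only. RefSeq promoters of 300 bases were matched for 14503 genes, and motifs were searched on both strands, where matches of different motifs may share bases. The TATA box letters TATAAA were in 11.9% of all promoters, in 26.1% of the lowest quintile by mean level and in 7.58% of the highest quintile. The GC box letters GGGCGG went the other way, from 16.4% in the lowest quintile to 64.0% in the highest, with 48.2% overall. The lowest quintile holds most of the olfactory receptor genes.

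The CCAAT letters, which are part of the known control region of MHC class II genes, were in all 9 class II promoters matched, in 86.2% of 29 histone promoters and in 70.0% of 20 cell division promoters, against 38.0% of all. Histone promoters also held TATAAA in 51.7%, and the H2ac12 promoter shown above had both. The letters TTTGAA, the core of the cell cycle gene homology region, were in 55.0% of the 20 cell division promoters and 15.9% of all, and this motif was added after the values were seen. The GATA motif, searched as the letters AGATAAG only, was in 5 of 24 erythroid promoters, and in 2.49% of all. Other spellings, such as TGATAAG in the Hba-a1 promoter shown above, were not counted. These were the promoters of Rhd, Epor, Trim10, Fech and Icam4, named after the search. The interferon response element was in 10 of 17 promoters of interferon-stimulated genes and in 3.41% of all. The absence of these letters in other promoters says only that they were not in this window.

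**Figure D5:**
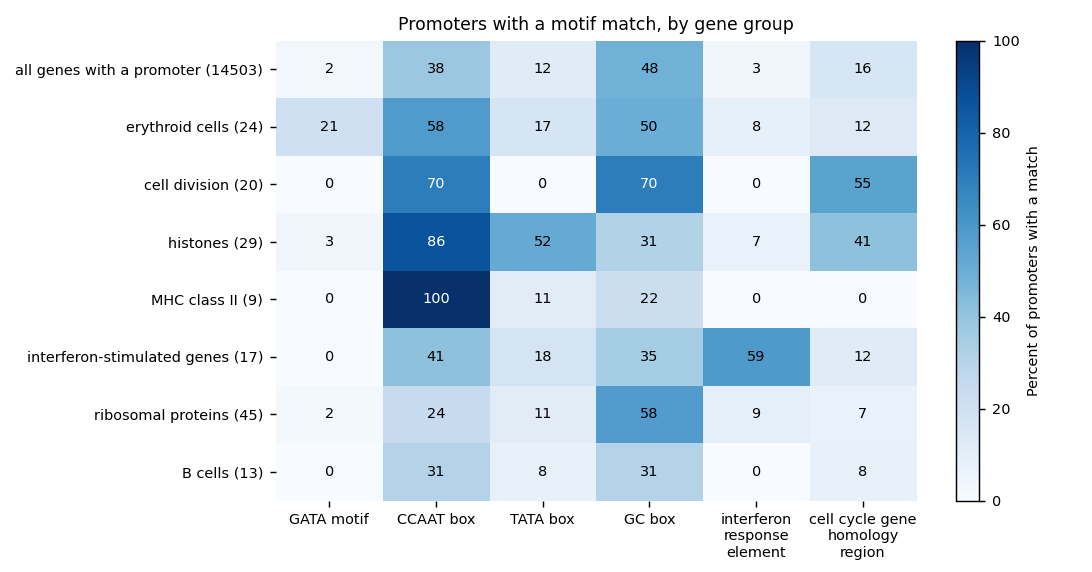
Percent of promoters with at least 1 match to each motif on either strand, for all genes and for 7 gene groups, with the number of promoters in parentheses and the rounded percent in each cell. Class II and histone promoters hold the highest shares of CCAAT (100% and 86.2%), and interferon-stimulated genes hold the interferon response element in 58.8%.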

How the data were processed

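RNA from whole spleen of 3 sham rats was measured on Affymetrix Rat Gene whole-transcript arrays, 1 per rat. The deposited values are log2 intensities of 36685 probe sets, which the authors obtained by RMA, a method that corrects background, equalises distributions and summarises probes. The submitters' processing notes name the Transcriptome Analysis Console for it. Whether RMA was run over all 6 arrays together is not given in the sources used here. A difference in total RNA between spleens is not visible after RMA. There were 0 missing values, 0 columns without a sample and no further filter. Scanner files were not analysed here.

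Of the probe sets, 18511 carried 1 symbol in the platform annotation, 575 several and 17599 none. Symbols were updated by Entrez identifier with the RefSeq table of GRCr8, which matched 18394. This gave 18166 genes, 291 of them with several probe sets. Means, SDs and ranges were computed with pandas 2.3.3 and numpy 2.4.6 in Python 3.11.15, and the code was tested on simulated data. A range is the highest minus the lowest rat on the log2 scale, and a percentile is the share of genes ranked at or below the value.

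The 34 lists held 744 genes, of which 626 were measured: housekeeping, ribosomal proteins, B cells, plasma cells, T cells, cytotoxic cells, MHC class II, red pulp macrophages, marginal zone macrophages, dendritic cells, erythroid cells, platelets, neutrophil primary granules, mature neutrophils, mast cells with basophils and eosinophils, endothelium, reticular stroma, extracellular matrix, smooth muscle, mesothelium, adipocytes, exocrine pancreas, cell division, interferon-stimulated genes, immediate early genes, heat shock proteins, clock, chemokines, sex-linked genes and 5 lists of other organs. Named genes are the 50 highest, the 20 with the largest range among all genes and among those above the median, and of each list the 6 highest, 2 lowest and 3 widest, together with 69 cell type markers, of which 58 were measured. Genes outside this rule were chosen after their values were seen. The members and lists were chosen with earlier results of these data known. No test was run.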

Additional observations from a re-analysis of the deposited data

How the results depend on the processing

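The alternatives were median centring, quantile normalization, a gene's mean over its probe sets, ranking over all probe sets, omission of genes below the 40th percentile of level, a limit of 1.5-fold, list means and each rat left out. No paired analysis was possible because a single group was described and no result comes from a test. Centring moved rat 3 relative to rat 1 by 0.112 on the log2 scale. With it, rats 1 and 3 were over 2-fold apart in 146 genes, and the cell division count rose from 5 to 8, while quantile normalization gave 3. Without the lowest genes, rats 1 and 2 were over 2-fold apart in 20 genes. At 1.5-fold, 1150 genes and 117 list members had such a range, among them 29 erythroid, 16 cell division, 10 matrix and 8 liver genes. With a rat left out, the gene count ran from 39 to 124, that of list members from 17 to 33 where the full count was 46, erythroid genes from 0 to 14, cell division from 0 to 3, matrix from 0 to 3, mesothelial from 1 to 7 and liver from 1 to 4. Ranked over all probe sets, 26 of the 100 highest genes stayed among the first 100. The count of lists above the median gene stayed between 23 and 25, and the median SD between 0.082 and 0.128. List medians moved by more than the SD between rats in 14 of 34 lists when members were averaged, by at most 1.18 for fat cell genes, and in 3 or fewer under each other setting. With 3 arrays, an SD of a single gene is itself imprecise.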

Other observations

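Several gene groups outside the main lists were measured in the same arrays. The cathepsins, proteases of lysosomes, had a median of 9.61 over 15 genes, and Ctsb (12.10) and Ctsh (11.72) were the highest by mean log2 value, while Ctsm, Ctsq and Ctsr, which are placental in rodents, were at 4.24, 3.68 and 3.96. The 7 GIMAP GTPases, which lymphocytes need to survive, lay between 7.57 and 9.93. Of the 6 guanylate-binding proteins, which interferon gamma induces, Gbp7 was the highest with 10.65, 10.71 and 10.80, and 5 were highest in rat 3 as deposited, after centring and after quantile normalization, against 38.3%, 21.3% and 32.6% of all genes. These groups and their members were chosen after their values were seen.

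Probe sets for 363 miRNA hairpins were on the array. They read the hairpin or its primary transcript and not the mature miRNA. Their median was 4.80, and 206 of the 363 were in the lowest quintile of genes. Mir339 was the highest with a mean of 9.13, followed by Mir181d with a mean of 8.93 and Mir210 with 8.88. Mir223, the miRNA of myeloid cells, had a mean of 7.66. Mir144, which erythroid cells transcribe, was low throughout with 4.47, 3.99 and 3.42. It was 1 of 5 hairpins (1.38%) with a range over 2-fold, a share near the 0.963% of all genes. The mature sequences of Mir144 and Mir223, shown because these miRNAs belong to cell types described above, are those of RefSeq in GRCr8, with the seed of bases 2 to 8 in capitals. The arms lay at chr10:63459409-63459431 and chr10:63459446-63459465 and at chrX:65151408-65151430 and chrX:65151450-65151470, all on the plus strand, and no pair shares a seed.
rno-miR-144-5p: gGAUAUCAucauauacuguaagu
rno-miR-144-3p: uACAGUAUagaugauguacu
rno-miR-223-5p: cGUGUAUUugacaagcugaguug
rno-miR-223-3p: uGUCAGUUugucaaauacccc

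The probe sets without a symbol hold much of the strongest and the most variable signal. The 17599 probe sets without a symbol had a median of 5.69 and a maximum of 13.90, and 1150 of them (6.53%) had a range over 2-fold between the sham rats. Of the 100 highest probe sets on the array, 65 had no symbol, 6 had several and 29 had 1. What these probe sets measure was not analysed here.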
